A study of Mus musculus with 23 samples.

Results

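In all, 10 genes of adipogenesis and lipid handling were followed through 23 libraries from single-cell RNA-seq of mouse bone marrow-derived mesenchymal stem cells (mMSCs) and HL-1 cardiomyocytes (HL1cm). The genes were the CCAAT/enhancer binding proteins Cebpa, Cebpb and Cebpd, the nuclear receptor Pparg, the transcription factor Klf4, the fatty acid binding proteins Fabp4 and Fabp5, the lipid droplet coat protein Plin2, the lipoprotein lipase Lpl and its secreted inhibitor Angptl4. They were taken by symbol from a table of 23284 genes, and all 10 were in it.

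The study profiled 16 single mMSCs, 5 single HL1cm, a population control (PC) of many mMSCs (mMSC-PC) and a PC of HL1cm (HL1cm-PC), to look at how single MSCs differ in genes of the lineages they can enter. All libraries carry the strain C57BL/6J in their labels. The mMSCs came from the bone marrow of male mice 3 months old, were used at passages 6 to 11 and received no differentiation stimulus. HL1cm is a line derived from a mouse atrial tumour, used here at passages 70 to 85 as the negative control. By the study's methods both were captured in the same microfluidic device, and bulk RNA of both PCs was run in parallel with the single cells. The 2 cell types were grown in different media, the HL1cm in one that contains norepinephrine, and by the study's methods only the HL1cm were labelled with a green cytoplasmic dye before capture, so cell type, medium and dye cannot be told apart. No separate cultures are named, so each cell type is 1 sample here: cells of a culture are not replicates, no test was made between cell types, and the spread between cells holds technical and biological spread together.

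Adipogenesis is known as a cascade. Cebpb and Cebpd are induced early, they switch on Pparg and Cebpa, and these last factors hold each other active and drive genes of the fat cell such as Fabp4, Lpl and Plin2. Klf4 is an early factor that acts upstream of Cebpb, and Angptl4 is a target of the PPAR family. Bone marrow MSCs can enter this lineage, and cardiomyocytes use several of the same lipid genes to take up and burn fatty acids.

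Expression is given as FPKM, a level in which the fragments of a gene are scaled by its exon length and by the fragments mapped in the library. The deposited table holds no read counts or depths, so the precision of a single low value is not given here. Single mMSCs had 5178 to 7241 genes at 1 FPKM or more and single HL1cm 6428 to 7010, with the lowest numbers in mMSC9 (5178) and mMSC15 (5837). These are also the mMSC libraries with the fewest read pairs in the study's statistics. It was 9625 in mMSC-PC and 9881 in HL1cm-PC. Of 8 mesenchymal markers, 7 were above 0 in every mMSC and Thy1 was listed at 0 in all of them. The sum of 9 cardiomyocyte markers was 32948 to 60053 FPKM in HL1cm and 0 to 65.4 FPKM in mMSCs. The 6 adipocyte markers checked (Adipoq, Plin1, Cidec, Lep, Retn and Cfd) were listed at 0 in every library, while some genes of a wider list of the mature adipocyte, given last, were above 0.

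Promoter sequences show how unlike the start regions of these genes are, beginning with the regulators that divided the mMSCs (Cebpb and Pparg) and with the pair of genes whose levels ran most closely together (Klf4 and Plin2). RefSeq (GRCm38.p6) gave promoter windows for 5 of the 10 genes, 250 bases before to 50 bases after an annotated start. The Cebpb window is chr2:167688665-167688964 on the plus strand, with TGACG, the core of a cAMP response element, in capitals at 3 places, where the reverse strand reads CGTCA. The Pparg window is chr6:115421816-115422115 on the plus strand, the last of 3 annotated starts, with TTGCNNAA, a form of the C/EBP recognition sequence, in capitals at 2 places on either strand. The Klf4 window is chr4:55532426-55532725 and the Plin2 window is chr4:86670010-86670309, both on the minus strand, with the GC box GGGCGG in capitals, or CCGCCC where it lies on the other strand.
Cebpb promoter: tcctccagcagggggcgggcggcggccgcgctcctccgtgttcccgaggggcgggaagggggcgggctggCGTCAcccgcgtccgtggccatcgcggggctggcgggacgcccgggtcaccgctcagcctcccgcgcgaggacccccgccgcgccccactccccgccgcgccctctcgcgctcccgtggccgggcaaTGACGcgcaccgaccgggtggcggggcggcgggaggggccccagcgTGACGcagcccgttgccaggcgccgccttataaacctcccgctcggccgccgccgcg
Pparg promoter: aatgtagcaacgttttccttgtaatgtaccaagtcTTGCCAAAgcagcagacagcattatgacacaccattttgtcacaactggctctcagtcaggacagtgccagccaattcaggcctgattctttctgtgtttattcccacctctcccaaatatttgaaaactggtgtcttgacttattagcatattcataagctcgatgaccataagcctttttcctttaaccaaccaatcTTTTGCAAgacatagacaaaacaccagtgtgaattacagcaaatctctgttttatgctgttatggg
Klf4 promoter: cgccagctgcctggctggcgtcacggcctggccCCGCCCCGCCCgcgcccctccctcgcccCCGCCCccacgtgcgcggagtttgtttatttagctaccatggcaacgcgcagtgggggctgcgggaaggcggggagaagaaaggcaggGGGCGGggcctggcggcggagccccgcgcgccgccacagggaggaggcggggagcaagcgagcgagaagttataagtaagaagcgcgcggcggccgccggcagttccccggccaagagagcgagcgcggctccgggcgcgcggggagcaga
Plin2 promoter: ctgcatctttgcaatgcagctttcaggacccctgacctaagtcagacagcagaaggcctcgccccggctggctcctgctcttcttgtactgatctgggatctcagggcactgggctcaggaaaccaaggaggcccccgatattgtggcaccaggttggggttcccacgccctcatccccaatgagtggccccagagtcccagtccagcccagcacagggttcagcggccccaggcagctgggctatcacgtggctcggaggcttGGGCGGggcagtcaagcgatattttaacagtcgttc

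The GC content of these windows was 80.7% for Cebpb, 74.3% for Klf4, 60.7% for Plin2 and 40.3% for Pparg. Of 32851 promoters of 300 bases, 20.8% held TGACG, 10.8% held TTGCNNAA, 35.7% held GGGCGG and 16.3% held AGGTCA, the PPAR half-site, with both strands searched and overlapping matches counted. Klf4 had 4 matches to GGGCGG, among them a pair that share a base, and Plin2 had 1, while Cebpb had 5 that are not capitalised. AGGTCA was found in the Plin2 window and in the other two Pparg windows, 1 match each, and TTGCNNAA was found only in the last Pparg window among the 7 windows searched. TGACG was found in the Klf4 window too, with 1 match that is not capitalised. A match describes the letters of a window and is not a binding site.

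Klf4, at chr4:55527143-55532466 on the minus strand, was above 0 in 13 of 16 mMSCs. Its level in mMSCs ran from 0 through a median of 15.6 FPKM to 138 FPKM in mMSC5. In HL1cm it was 0, 23.2, 11.96, 53.8 and 28.4 FPKM in cells 1 to 5. The groups overlapped throughout. The mMSC mean in log2 FPKM was 3.67 ± 2.48 (SD, 16 cells) and the HL1cm mean was 3.74 ± 2.23 (SD, 5 cells). Here and below, log2 was taken after every value under 1 FPKM had been raised to 1. The difference of -0.07 was far inside the spread between cells and became -1.001 without HL1cm1, the HL1cm listed at 0.

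Cebpb, an early C/EBP, is at chr2:167688915-167690418 on the plus strand. It was above 0 in 13 mMSCs, where it ranged from 26.1 FPKM in mMSC16 to 413 FPKM in mMSC12, with a median of 82.6 FPKM over all 16 cells. It was listed at 0 in mMSC1, mMSC2 and mMSC9. Among the 6 members seen in at least 8 mMSCs, Cebpb had the widest spread: its SD of 2.84 in log2 FPKM lay at the 98.8 percentile of the 6777 genes seen in as many cells, whose median SD was 1.499. The 3 cells listed at 0 enter this SD as 1 FPKM, so its size and percentile rest on the floor. With a floor of 10 FPKM the SD of Cebpb was 1.67. In HL1cm the values were 0, 19.0, 29.5, 34.1 and 0 FPKM. The mMSC mean in log2 FPKM was 5.34 ± 2.84 (SD, 16 cells) and the HL1cm mean was 2.84 ± 2.61 (SD, 5 cells). They differed by 2.49, which was less than either SD, and the groups overlapped.

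Cebpd, the other early C/EBP (chr16:15887286-15891031, plus strand), was listed at 0 in all 23 libraries, both PCs included. So were 8915 of the 23284 genes. A listed 0 can be a failed estimate: Canx, Chchd2, Snrpd2 and Tmsb4x each stood at 0 in 1 library and above 100 FPKM in the other 22. No statement on the presence of Cebpd RNA is made from these values.

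Cebpa, the late C/EBP (chr7:35119293-35121928, plus strand), was above 0 in 2 mMSCs only, mMSC3 at 15.6 FPKM and mMSC4 at 9.44 FPKM. Both of these cells also held Pparg, Cebpb, Klf4 and Fabp5, which were above 0 in 10, 13, 13 and 15 of the 16 mMSCs. All HL1cm and both PCs were listed at 0.

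Pparg, the nuclear receptor at the centre of the cascade, lies at chr6:115360951-115490399 on the plus strand. It was above 0 in 10 of 16 mMSCs, or 62.5% (95% exact Clopper-Pearson interval 35.4 to 84.8%, which covers the counting of cells only). Among those cells it went from 3.21 FPKM in mMSC5 to 60.6 FPKM in mMSC9 and 96.0 FPKM in mMSC15. The highest levels thus stood in the libraries in which the fewest genes were seen, and without these 2 libraries Pparg was above 0 in 8 of 14 mMSCs with a highest value of 36.7 FPKM. The part of depth in this was not tested. All 5 HL1cm were listed at 0 for Pparg, where by the exact interval up to 52.2% of such cells could be listed above 0, which sets no limit on cells that express it. HL1cm-PC was listed at 0 as well, and mMSC-PC stood at 9.55 FPKM. Gene-level values do not separate transcripts from its 3 annotated starts.

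**Figure D1:**
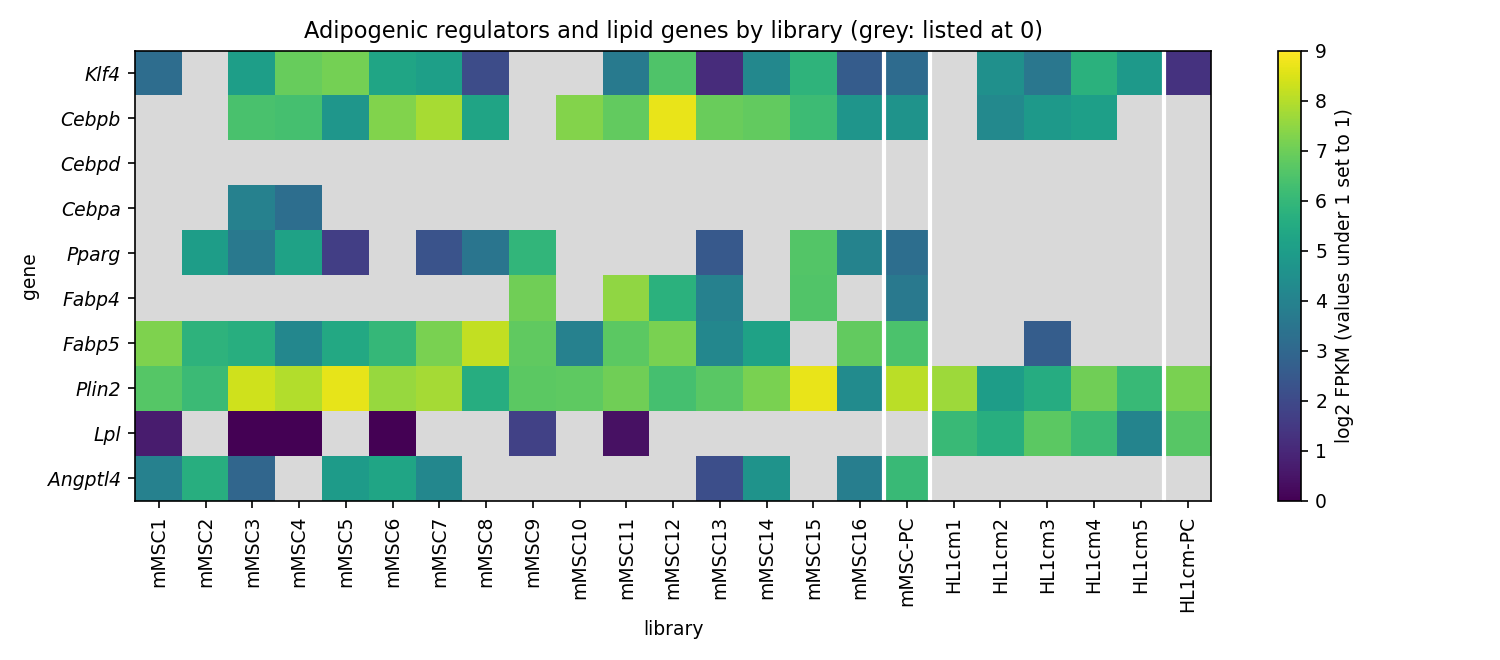
Level of the 10 genes (rows) in the 23 libraries (columns, white lines between groups) as log2 FPKM, with values under 1 set to 1 and grey where a gene was listed at 0. Plin2 is above 0 in every library, Cebpd in none, and Cebpa, Pparg, Fabp4 and Angptl4 in mMSC libraries only.

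Fabp4, the fatty acid binding protein of adipocytes and macrophages (chr3:10204088-10208576, minus strand), was above 0 in 5 of 16 mMSCs, 31.2% (95% exact interval 11.0 to 58.7%). The values were 134 FPKM in mMSC9, 181 in mMSC11, 53.9 in mMSC12, 15.4 in mMSC13 and 93.1 in mMSC15. It was therefore either listed at 0 or at a level of 15.4 FPKM or more, and mMSC-PC held 12.4 FPKM, below each of the 5 cells. All HL1cm and HL1cm-PC were listed at 0. Without mMSC9 and mMSC15 it was above 0 in 3 of 14 cells. The cells with Fabp4 had 5178 to 7113 genes (median 6496) at 1 FPKM or more and those without it 6658 to 7241 (median 6916), and the part of depth was not tested.

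Markers of other cells that use Fabp4 were set beside it. The sum of 11 macrophage markers was 8.20 to 369 FPKM (median 85.1) in the 5 mMSCs with Fabp4 and 3.10 to 230 FPKM (median 65.3) in the 11 without. Of these, Cd14 was above 0 in 15 mMSCs at a median of 62.5 FPKM over the 16. Csf1r was above 0 in 8 mMSCs. Among single cells Cd68 was above 0 in mMSC11 alone (48.1 FPKM), the cell with the most Fabp4, and Fcer1g in 1 mMSC without Fabp4 (9.79 FPKM). Cd68 was not confined to that cell, at 12.6 FPKM in mMSC-PC and 5.77 FPKM in HL1cm-PC. In mMSC-PC, Cd14 stood at 112 FPKM and Csf1r at 7.04 FPKM. Itgam was above 0 in 2 mMSCs, at up to 0.812 FPKM, and at 1.38 FPKM in mMSC-PC. The other 6 of the 11, Ptprc, Emr1, Lyz2, C1qa, C1qb and Tyrobp, were listed at 0 in all 16. The sum of 6 endothelial markers was 0 to 10.8 FPKM in the cells with Fabp4 and 0 in the others, and Pecam1, Cdh5, Tek, Emcn and Tie1 were listed at 0 in every mMSC.

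Fabp5, the fatty acid binding protein first known from skin (chr3:10012548-10016607, plus strand), was above 0 in 15 of 16 mMSCs. It ran from 0 in mMSC15 through a median of 60.2 FPKM to 292 FPKM in mMSC8. Of the 5 HL1cm, HL1cm3 held 6.30 FPKM and the others were listed at 0. All mMSCs but mMSC15 lay above all HL1cm, and mMSC15 alone made the groups overlap. The mMSC mean in log2 FPKM was 5.66 ± 1.95 (SD, 16 cells) and the HL1cm mean was 0.53 ± 1.19 (SD, 5 cells), which differed by 5.13. The size rests on the floor, since 4 HL1cm are listed at 0, and was 2.55 with a floor of 10 FPKM. The PCs stood at 87.7 FPKM and 0.

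Plin2, which coats lipid droplets in most cell types (chr4:86648386-86670060, minus strand), was the one member above 0 in all 16 mMSCs. Its level went from 20.1 FPKM in mMSC16 to 412 FPKM in mMSC15, with a median of 121 FPKM, and its SD of 1.16 lay at the 29.1 percentile of the 6777 genes. The HL1cm held 206, 32.0, 47.6, 132 and 67.2 FPKM, all inside the mMSC range. The mMSC mean in log2 FPKM was 7.03 ± 1.16 (SD, 16 cells) and the HL1cm mean was 6.27 ± 1.09 (SD, 5 cells). The difference of 0.76 was smaller than the spread between cells of either type. It passed 1 without HL1cm1 (1.11) and with libraries scaled to the same Gapdh or the same sum (1.10 each).

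Lpl, the lipase that frees fatty acids from lipoproteins, is at chr8:68880491-68907448 on the plus strand and was the member with the opposite pattern. The HL1cm held 69.4, 50.02, 107, 69.9 and 16.9 FPKM. Of the mMSCs, 6 were above 0, at 1.60 FPKM in mMSC1, 0.766 in mMSC3, 0.638 in mMSC4, 0.532 in mMSC6, 3.34 in mMSC9 and 1.32 in mMSC11, and the other 10 were listed at 0. Every HL1cm was above every mMSC, and the mMSC mean in log2 FPKM of 0.18 ± 0.46 (SD, 16 cells) and the HL1cm mean of 5.74 ± 1.01 (SD, 5 cells) differed by -5.57. The PCs had the same order, 0 in mMSC-PC and 101 FPKM in HL1cm-PC.

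The low Lpl values in mMSCs lay near the bottom of what those libraries list: each stood among the lowest 1.32 to 11.2% of the values above 0 of the 200 genes nearest to Lpl in transcript length. The sum of cardiomyocyte markers was 0 to 65.4 FPKM (median 21.8) in the 6 mMSCs with Lpl above 0 and 0 to 63.5 FPKM (median 29.9) in the other 10. The difference in Lpl between cell types depends on the floor of 1 FPKM and was -2.42 with a floor of 10 FPKM.

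Angptl4, the secreted inhibitor of Lpl (chr17:33773750-33781830, minus strand), was above 0 in 9 of 16 mMSCs, from 4.46 FPKM in mMSC13 to 50.2 FPKM in mMSC2, with a median of 6.17 FPKM over the 16. No HL1cm held it, and HL1cm-PC was listed at 0. In mMSC-PC it stood at 68.0 FPKM, above every single mMSC. All 9 cells with Angptl4 also held Fabp5, as did all 6 with Lpl, but 15 of 16 mMSCs held Fabp5. Lpl and Angptl4 were both above 0 in 3 mMSCs, 50% of the cells with Lpl and 33.3% of those with Angptl4. Over all 16 mMSCs, Angptl4 was above 0 in 56.2% and Lpl in 37.5%.

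**Figure D2:**
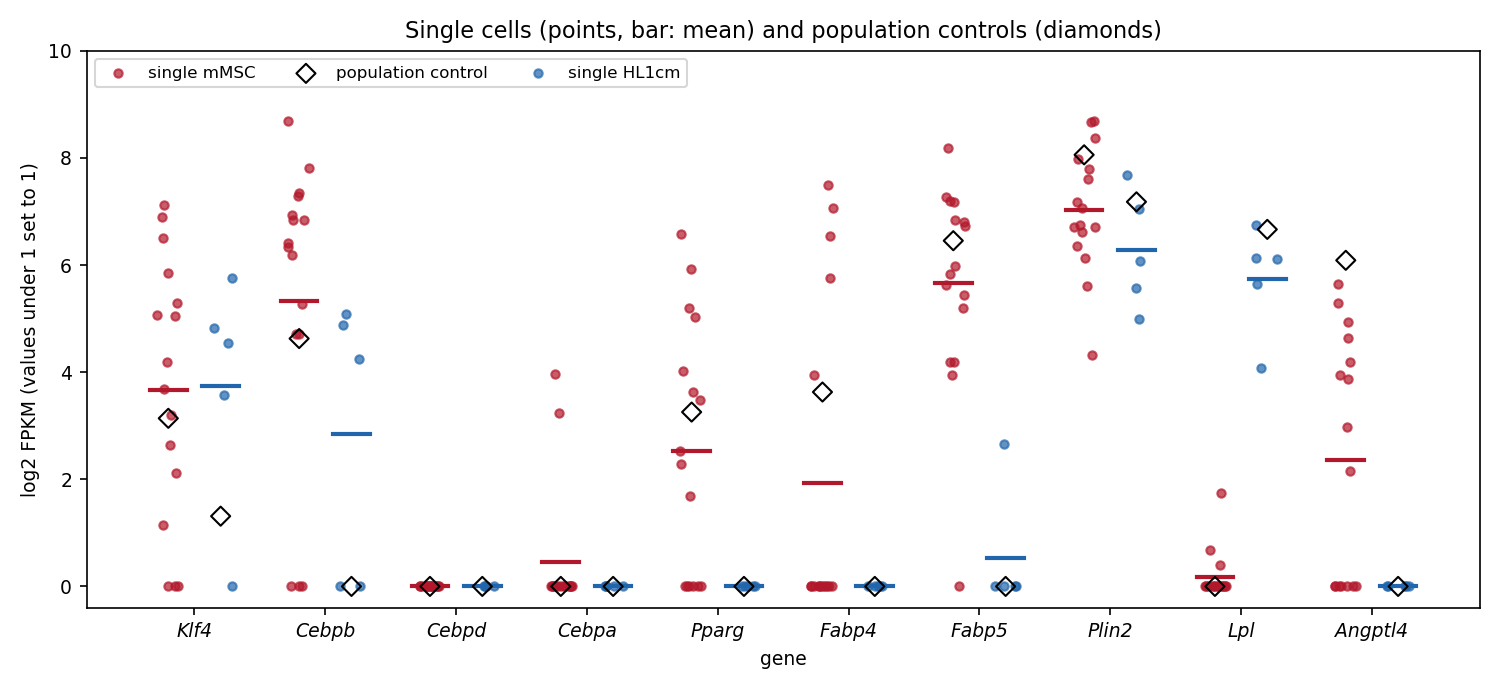
Log2 FPKM (values under 1 set to 1) of each gene in 16 single mMSCs (red points) and 5 single HL1cm (blue points), with the mean of the cells as a bar and the matching population control as an open diamond. Lpl is the gene whose groups do not overlap, and the mMSC-PC diamond of Angptl4 (68.0 FPKM) is above all of its cells.

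Across the 10 genes, 9 reached 1 FPKM in at least 2 single cells and were compared on the study's fold of 2, a difference of 1 in mean log2 FPKM. Of these 9, 5 were higher in mMSCs (Cebpb, Pparg, Fabp4, Fabp5 and Angptl4), beside 21.4% of 11850 genes, and 1 was lower (Lpl), beside 21.6%. Pparg, Fabp4 and Angptl4 are among the 5 although listed at 0 in every HL1cm, so the size of their difference rests on the floor. With a floor of 10 FPKM, 2 of the 5 were still higher by the fold of 2, Cebpb (1.79) and Fabp5 (2.55). The median difference of the 9 genes was 1.92, and that of all 11850 genes was 0.08. This median of 1.92 is the difference of Fabp4, listed at 0 in every HL1cm, so it rests on the floor too. No member had every mMSC above every HL1cm, beside 2.19% of genes, and 1 had every mMSC below, beside 1.77%.

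Between the PCs, 8 of the 10 genes reached 1 FPKM in either library. At the same fold, 6 were higher in mMSC-PC (the same 5 and Klf4, 8.80 against 2.48 FPKM), beside 20.5% of 11509 genes (7 with libraries scaled to the same sum or the same 75th percentile), and 1 was lower (Lpl), beside 39.0%. Plin2 was 266 FPKM in mMSC-PC and 145 FPKM in HL1cm-PC. In a population, fewer cells of a type and less RNA per cell cannot be told apart, and each PC is 1 library with no replicate.

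The single cells were then set against the PC of their own type, a comparison chosen after the values were seen. Cebpb had a mean of 102 FPKM in single mMSCs and 24.7 FPKM in mMSC-PC, a ratio of 4.14, and the PC lay below each of the 13 cells above 0. Klf4 had a mean of 35.3 FPKM against 8.80 in mMSC-PC, a ratio of 4.01, and of 23.5 FPKM against 2.48 in HL1cm-PC, a ratio of 9.46. Cebpb in HL1cm had a mean of 16.5 FPKM while HL1cm-PC was listed at 0. Of the 5 HL1cm, 2 are listed at 0 for Cebpb too, so no ratio is given there.

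Fabp4 was 2.41 times its PC level in mMSCs, Pparg 1.83 times and Fabp5 0.979 times. These ratios rest on few cells: without mMSC9 and mMSC15, Fabp4 was at 1.44 times and Pparg at 0.920 times, and without mMSC11 alone Fabp4 was at 1.60 times. Plin2 stood at 0.641 times its PC level in mMSCs and 0.668 times in HL1cm, and Lpl at 0.617 times in HL1cm. Angptl4 was at the other end, with a mean of 12.9 FPKM against 68.0, so the PC was 5.29 times the cells. Of 7 members compared in mMSCs, 3 were at 2 times or more (Cebpb, Klf4 and Fabp4, or 2 without mMSC9, without mMSC11 or without mMSC9 and mMSC15), beside 15.6% of 8569 genes, and 1 was at 0.5 times or less (Angptl4), beside 26.9%. Of 3 in HL1cm, 1 was at 2 times or more (Klf4), beside 10.2% of 8205 genes, and none at 0.5 times or less, beside 38.2%.

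Scaling moved these ratios. Gapdh was 157 to 319 FPKM in single mMSCs and 551 FPKM in mMSC-PC, and as ratios to Gapdh the figures were 11.0 for Cebpb, 10.3 for Klf4, 5.90 for Fabp4, 4.66 for Pparg, 2.56 for Fabp5 and 0.561 for Angptl4. Plin2 was at 1.72 on that scale. Gapdh is higher in mMSC-PC than in every mMSC, so this scale raises the ratio of every gene.

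**Figure D3:**
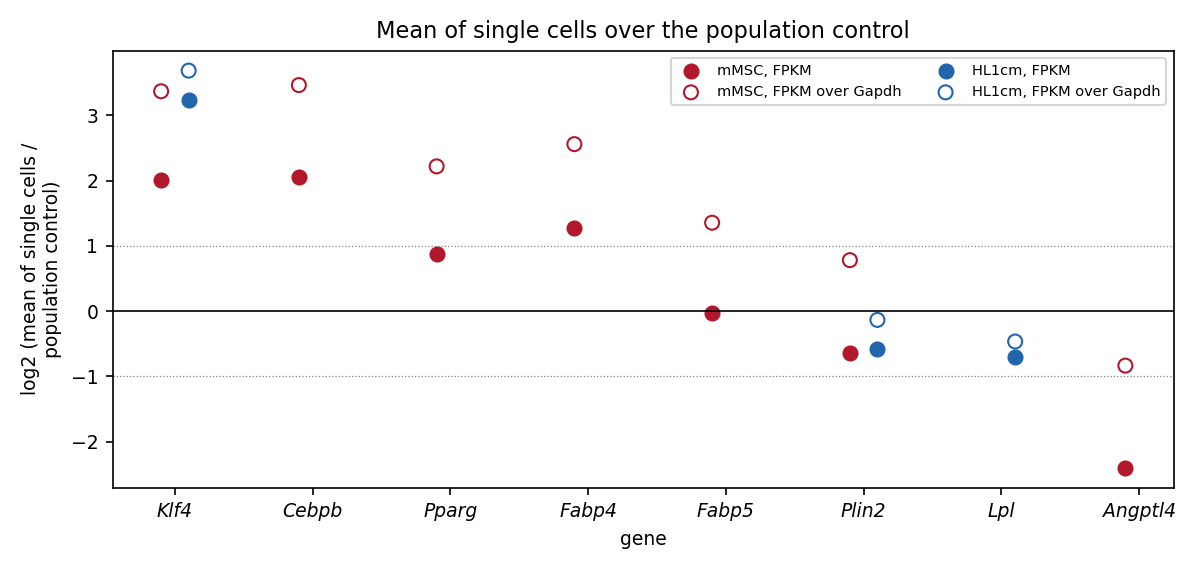
Log2 of the mean FPKM of single cells over the FPKM of the population control, for members at 1 FPKM or more in both, in mMSCs (red) and HL1cm (blue), from FPKM (filled) and from FPKM divided by Gapdh (open), with dotted lines at a change of 2 times. Klf4 (4.01 and 9.46) and Cebpb (4.14) lie highest and Angptl4 lowest under either scale.

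The genes were next followed cell by cell. Each mMSC held 3 to 7 of the 10 at 1 FPKM or more (median 5), the fewest in mMSC10 and the most in mMSC3 and mMSC13, and each HL1cm held 2 to 5 (median 4). By Cebpb, Pparg and Fabp4, the 16 mMSCs fell into 7 patterns. Of these, 6 cells held Cebpb and Pparg without Fabp4 (mMSC3, 4, 5, 7, 8 and 16), 3 held Cebpb alone (mMSC6, 10 and 14), 2 held Cebpb with Fabp4 (mMSC11 and 12), and 2 held all 3 genes (mMSC13 and 15). mMSC2 held Pparg alone, mMSC9 held Pparg with Fabp4, and mMSC1 held none.

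Fabp4, a known target of Pparg, was above 0 together with Pparg in 3 cells. This is 60.0% of the cells with Fabp4, beside 62.5% of all mMSCs with Pparg. It is 30.0% of the cells with Pparg, beside 31.2% of all mMSCs with Fabp4. Cebpb was above 0 in 4 of the 5 cells with Fabp4 and in 8 of the 10 with Pparg, beside 13 of all 16 mMSCs. These shares lie near those over all mMSCs. Cebpa and Fabp4 shared no cell. The cells with the most Fabp4 (mMSC11, 181 FPKM) and the most Cebpb (mMSC12, 413 FPKM) were both listed at 0 for Pparg.

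In all, 6 members reached 1 FPKM in at least 8 mMSCs (Cebpb, Pparg, Fabp5, Plin2, Klf4 and Angptl4), which gave 15 pairs. Their median Spearman rho over the 16 mMSCs was -0.10, beside 0.0030 over all pairs of the 6777 genes. The sign of this median turned in 3 alternatives, with 0.04 for a floor of 10 FPKM, 0.04 for scaling to the same sum and 0.01 without mMSC9 and mMSC15. Of the 15 pairs, 12 lay in the middle 95% of those pairs (-0.50 to 0.51). These are descriptions over 16 cells that share culture, chip and library depth effects.

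The other 3 pairs were the following. Plin2 and Klf4 ran together, with rho = 0.65 and Pearson's r = 0.60, and r = 0.66 without mMSC15 and mMSC16, the cells farthest from the median of Plin2. mMSC5 stood high in both (409 and 138 FPKM) and mMSC8 low in both (48.9 and 4.31 FPKM). Fabp5 and Plin2 ran oppositely, with rho = -0.57 and r = -0.53, and rho = -0.38 and r = -0.29 without mMSC8 and mMSC15. Cebpb and Pparg also ran oppositely, with rho = -0.53 and r = -0.37, and without mMSC2 and mMSC9 rho was -0.42 and r was -0.03, so Pearson's r rested on those cells. mMSC1, listed at 0 for Cebpb like them, lay as far from its median and was kept only by the order of cells. It was listed at 0 for Pparg too, so the change in r depends on that choice. Without the cells named for each pair, the rho of Fabp5 with Plin2 and that of Cebpb with Pparg lie between -0.50 and 0.51, the range of the middle 95%, and so do they without mMSC9 and mMSC15 (-0.45 and -0.48). That range was taken over all 16 mMSCs and was not computed for the smaller sets of cells.

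**Figure D4:**
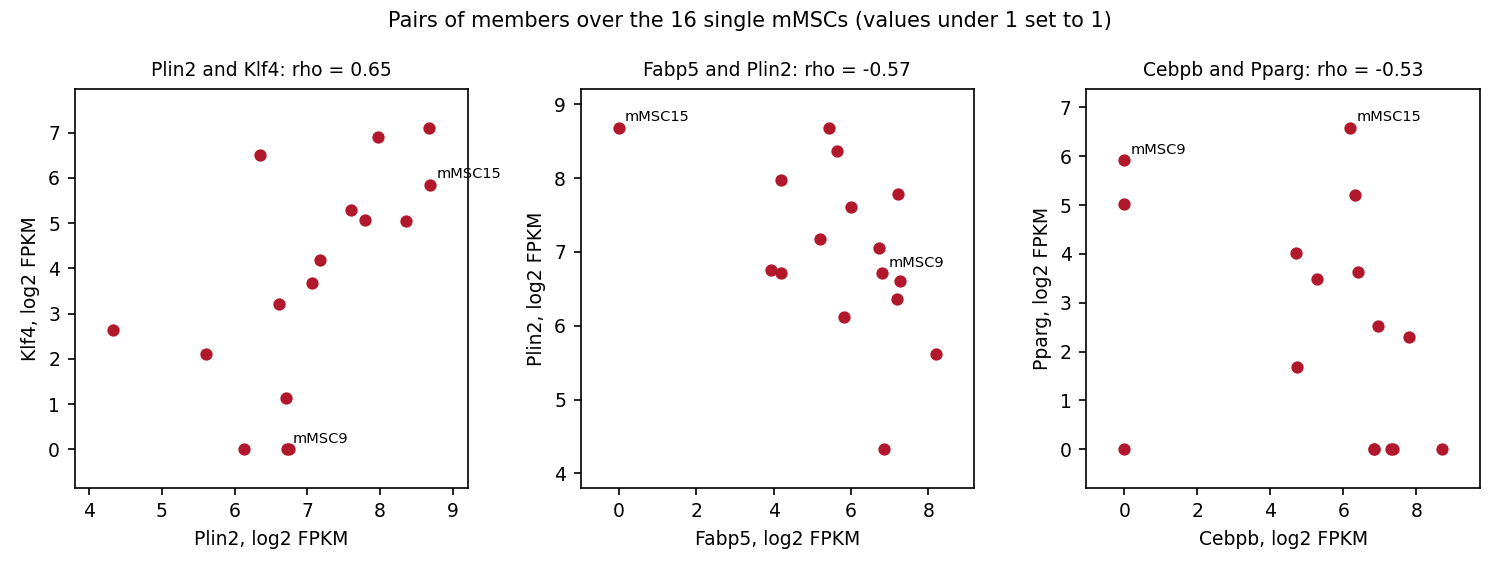
Log2 FPKM (values under 1 set to 1) of the 3 pairs of members outside the middle 95% of all gene pairs, each point a single mMSC (n = 16), with mMSC9 and mMSC15 named. Plin2 and Klf4 run together (rho = 0.65), and the Cebpb and Pparg panel shows the cells listed at 0 for either gene along its axes.

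Genes whose pattern over the 16 mMSCs was most like a member's were named from the 3 highest rho. For Cebpb, Zfp874a (0.80) and Psmf1 (0.77) are given. For Pparg they were Slc35b4 (0.81), Xbp1 (0.80) and Trim25 (0.78), and for Fabp5 Ctgf (0.85), Adipor1 (0.77) and Mdh2 (0.77). For Plin2 they were Acot9 (0.85), Eif3e (0.81) and Fam136a (0.79), for Klf4 Nfat5 (0.83), Smarca5 (0.82) and Rabep1 (0.81), and for Angptl4 5730507C01Rik (0.84), Sec11a (0.84) and Zc3h11a (0.83). No member was among the 3 most alike to another, and the highest of 6777 values is high by selection.

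The spread between mMSCs differed among these 6 members. The SD in log2 FPKM was 2.84 for Cebpb, 2.48 for Klf4 and 2.38 for Pparg, at the 98.8, 95.2 and 93.2 percentiles of the 6777 genes. Angptl4 had an SD of 2.29 (91.0 percentile), Fabp5 of 1.95 (78.8 percentile) and Plin2 of 1.16 (29.1 percentile). Fabp4, seen in 5 cells and so outside the 6, had an SD of 3.04. The order depends on the processing: without mMSC9 and mMSC15 the SD of Pparg was 2.02 and that of Angptl4 2.26. With a floor of 10 FPKM, Angptl4 (0.81) and Pparg (1.08) were below Plin2 (1.16) and Fabp5 (1.41). At that floor the SD of Cebpb fell to 1.67 and that of Klf4 to 1.42.

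Other genes of the pathway were read from lists. Of 34 further adipogenic regulators, 26 were compared: 7 were higher in mMSCs, 3 were lower, and the median difference was 0.20. Ddit3, a C/EBP family member of the stress response, was above 0 in all 16 mMSCs at a median of 303 FPKM and in 4 HL1cm at up to 68.9 FPKM, a difference of 3.92. Ebf1, an early B-cell and adipocyte factor, had a median of 42.1 FPKM in mMSCs and was above 0 in HL1cm4 only (2.09 FPKM). Klf9 had a difference of 2.78, and the inhibitor of differentiation Id2 was at 224 FPKM in mMSCs and 252 FPKM in HL1cm by medians. Ppara and Rxrb, nuclear receptors that work with or beside Pparg, were listed at 0 in all mMSCs and among single HL1cm each above 0 in HL1cm4 only, at 4.13 and 4.68 FPKM. Rxrb was higher than that in both PCs, 7.56 FPKM in mMSC-PC and 9.86 FPKM in HL1cm-PC, and Ppara was listed at 0 in both. The 3 lower in mMSCs were the coactivators Ppargc1a (-3.72) and Ncoa1 (-1.94) and the corepressor Ncor1 (-1.17), named after their values were seen.

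Of 18 genes of lipid storage and lipolysis, 11 were compared, with 6 higher in mMSCs, 3 lower and a median of 1.12. Hilpda, a lipid droplet protein that inhibits the lipase Pnpla2, had a median of 151 FPKM in mMSCs and a difference of 4.36, and G0s2, another inhibitor of Pnpla2, had 37.1 FPKM and 2.17. Dgat1, which makes triglyceride, had 26.3 FPKM and 2.99, while the coat protein Plin3 differed by -0.10. The PCs did not show the same for G0s2, at 8.22 FPKM in mMSC-PC and 10.5 FPKM in HL1cm-PC, nor for Dgat1, at 4.88 and 27.2 FPKM. The other higher genes, named after their values were seen, were Bscl2 (2.03) and Fitm2 (1.54), which act in lipid droplet formation, and Abhd5 (1.12), which activates Pnpla2. Mgll, which splits monoglycerides, was listed at 0 in all mMSCs and at 3.09 to 57.1 FPKM in HL1cm. Fitm1, a lipid droplet protein of muscle, was listed at 0 in mMSCs and above 0 in 4 HL1cm at up to 114 FPKM. Pnpla2 itself, named after its values were seen, was above 0 in 5 mMSCs and in all 5 HL1cm at 5.52 to 93.1 FPKM, a difference of -3.68. Lipe and Cideb were each listed at 0 in the single mMSCs and above 0 in 1 HL1cm, at 2.14 and 11.8 FPKM. Cideb was at 3.37 FPKM in mMSC-PC and 8.84 FPKM in HL1cm-PC, and Lipe at 0 and 4.21 FPKM.

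Of 21 genes of fatty acid synthesis and uptake, 19 were compared, 2 were higher in mMSCs and 5 lower, with a median of -0.58. The 2 were Acsl4, an acyl-CoA synthetase for polyunsaturated fatty acids, at 58.0 to 269 FPKM in mMSCs and 7.22 to 28.4 FPKM in HL1cm with no overlap, and the desaturase Scd1, at a median of 15.8 FPKM against 0. Its relative Scd2 was lower (-1.52), and Acsl5 differed by 0.59. Among single cells Acacb was above 0 in HL1cm1 only, at 3.74 FPKM, and HL1cm-PC held 0.654 FPKM. Cd36, the fatty acid translocase, was named after its values were seen: it was above 0 in 1 mMSC (12.9 FPKM) and in all HL1cm at 0.878 to 41.9 FPKM.

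Of the 8 other fatty acid binding proteins, 2 were compared, Fabp3 and Fabp12, both named after their values were seen. Fabp3, the heart form, was above 0 in 1 mMSC at 17.4 FPKM and stood at 1328 to 3866 FPKM in HL1cm, with PCs of 10.4 and 1920 FPKM.

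Of 14 partners and regulators of lipoprotein lipase, 13 were in the table and 6 were compared, with 3 higher in mMSCs, 1 lower and a median of 0.88. The 3 were the lipase maturation factor Lmf2 (1.24), the endothelial lipase Lipg (1.19, listed at 0 in HL1cm) and the receptor Lrp1 (2.08), which was at 1.11 to 9.83 FPKM in all mMSCs and listed at 0 in HL1cm. Sel1l, which works with maturation factors, differed by 0.57, and the one lower, named after its values were seen, was Lmf1 (-1.49), a maturation factor for Lpl.

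Of 16 genes of the mature adipocyte, 4 reached 1 FPKM in any mMSC. Named after their values were seen, they were Pck1 in mMSC15 (5.69 FPKM), Aqp7 in mMSC2 and mMSC13 (1.86 and 1.64 FPKM), Dgat2 in mMSC7 and mMSC14 (10.3 and 17.9 FPKM) and Adrb3 in mMSC10 (2.90 FPKM). In single HL1cm 5 of the 16 reached it, among them Aqp7 (2.16 FPKM) and Dgat2 (10.3 FPKM) in HL1cm3 and Adrb3 (2.08 FPKM) in HL1cm4. None of the 16 reached 1 FPKM in mMSC-PC, and 5 did in HL1cm-PC. Of 4 compared, none was higher in mMSCs and 1 was lower, Slc2a4, the insulin-regulated glucose transporter, which was above 0 in 2 HL1cm and no mMSC. The adipogenic list of the study holds 25 genes with 19 compared, 6 higher and 5 lower. Without the members it has 12 compared, 2 higher and 4 lower. These lists stand beside 21.4% of all genes higher and 21.6% lower.

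**Figure D5:**
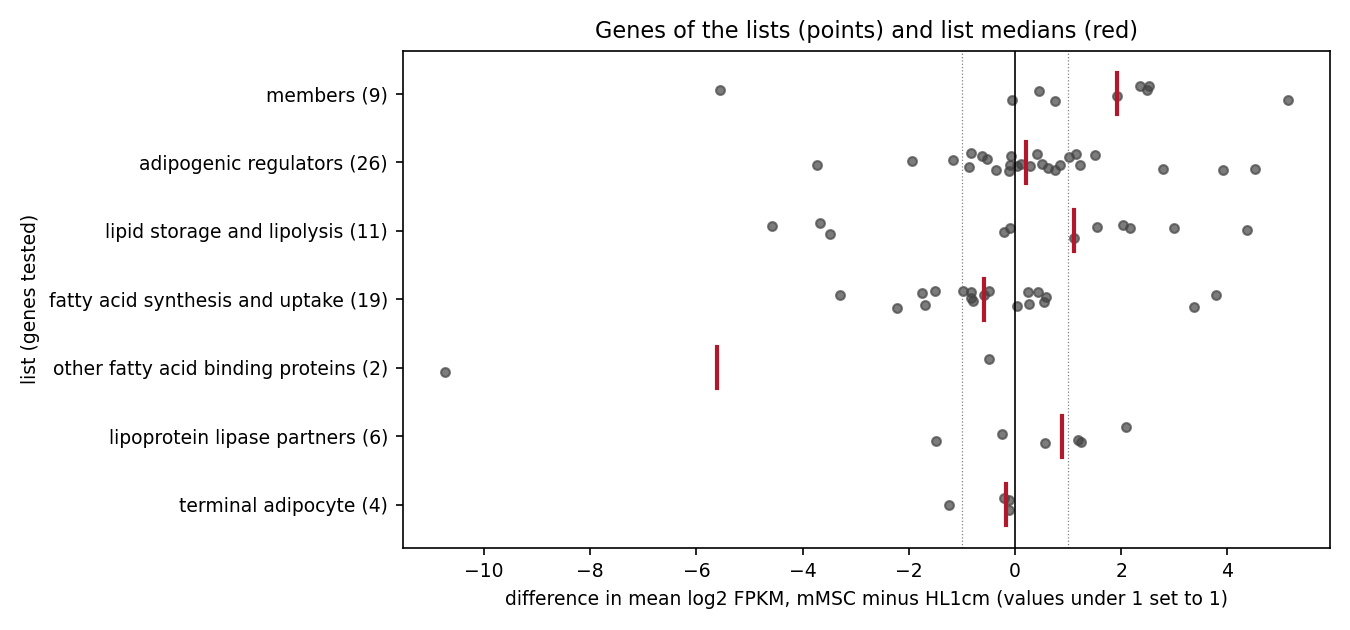
Difference in mean log2 FPKM, mMSC minus HL1cm (values under 1 set to 1), of each gene compared (points), by list, with the list median in red, dotted lines at the fold of 2, and the number of genes compared in parentheses. The members' median of 1.92 is the value of Fabp4, listed at 0 in every HL1cm, so it rests on the floor. Fabp3 is the point farthest to the left and Lpl the member farthest to the left.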

How the data were processed

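FPKM values were measured in 16 single mMSCs, 5 single HL1cm and 2 population controls. The authors made the deposited FPKM values by alignment to mm10 with TopHat2 2.0.12 and estimation with Cufflinks 2.2.1 under default options, per the submitters' processing notes and the study's methods. FPKM depends on the annotation and on the total mapped per library, and a listed 0 may be a failed estimate, which the deposited values cannot tell. Counts are not in the table, so no count model was fitted, and depth per library is not given here. The study's alignment statistics served only to pick mMSC9 and mMSC15 as the libraries of fewest read pairs.

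From these values log2 was taken after values under 1 FPKM were set to 1. Genes that reached 1 FPKM in at least 2 of the 21 single cells were compared by the difference in mean log2 FPKM, called at 1 or more (for the PCs and the cells against their PC, genes at 1 FPKM or more in either or in both, respectively). No test was made. Correlations used genes that reached 1 FPKM in at least 8 mMSCs. Transcript lengths, gene positions and the gene models are from GENCODE M21 (GRCm38, the assembly of mm10). Shares of cells carry exact Clopper-Pearson intervals. The scripts, run with matplotlib 3.10.9, pandas 2.3.3, numpy 2.4.6 and scipy 1.17.1 under Python 3.11.15, were tested on simulated data.

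Genes named are the 10 members, up to 4 genes of each list, by highest median among those that reached 1 FPKM in 8 or more mMSCs, list genes above 0 in HL1cm only, and the 3 genes most like each member. Exceptions are marked, and 1 gene is not reported here. The members and lists were chosen with earlier results of these data known. The alternatives were another log scale, a floor of 10 FPKM, 3 scalings, and libraries left out.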

Additional observations from a re-analysis of the deposited data

Results flagged for a closer look

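Within the 5 HL1cm, 29 genes of the text were checked for a single cell far from the other 4 by Dixon's ratio, and 9 had one. Of the 9, 7 reached 1 FPKM in 1 of the 5 cells only, for which the ratio is at its largest by construction, so the chance rate of about 1 in 20 groups applies to none of these 7. Groups of more than 10 cells were not checked. In 8 of the 9 the far cell was above the others. Fabp5 in HL1cm3 stood at 6.30 FPKM with the other 4 listed at 0. The summed mesenchymal markers in HL1cm3 were 754 FPKM, below the 1024 to 1594 FPKM of the other 4 cells. In HL1cm this sum mainly follows Vim (555 to 1005 FPKM) and Sparc (161 to 833 FPKM), which all 5 cells held. Ly6a, Col1a2, Pdgfrb and Thy1 were listed at 0 in all 5, and Cd44 and Col1a1 reached at most 1.94 and 7.61 FPKM. The sum therefore says little about markers particular to mMSCs. HL1cm4 was the far cell for Ebf1 (2.09 FPKM), Lipe (2.14 FPKM), Ppara (4.13 FPKM) and Rxrb (4.68 FPKM). HL1cm1 was the far cell for Acacb (3.74 FPKM) and Klf9 (24.6 FPKM), and HL1cm3 for Cideb (11.8 FPKM). Acsl5 was listed at 0 in HL1cm2 and above 0 in the other 4.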

How the results depend on the processing

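With a floor of 10 FPKM, 2 members instead of 5 were higher in mMSCs, 3 instead of 6 were higher in mMSC-PC, and 1 instead of 4 mature adipocyte genes was seen in mMSCs, since low values then count as the floor. Leaving out 1 HL1cm at a time gave 1 to 2 members lower in mMSCs, with Klf4 added without HL1cm1, at -1.001. Without mMSC9 and mMSC15, 2 members instead of 1 did not overlap, Fabp5 being added, since its lowest value was then 15.4 FPKM. With no filter on low values, the share of all genes called was 22.2% instead of 43.0%, since more genes were compared. The differences of Cebpb (1.78 to 3.05), Fabp5 (2.55 to 5.66), Lpl (-5.98 to -2.42) and Plin2 (0.44 to 1.11) kept their direction under the alternatives run, while that of Klf4, which was never called in the mMSC direction, went from -1.001 to 0.44. Scaling to the same sum or Gapdh moved the median difference of all genes from 0.08 to 0.21 or 0.22. The ratio of cells to mMSC-PC under 3 scalings was added after seeing the data and kept its direction for Cebpb, Klf4 and Angptl4. No paired analysis was possible because the cell numbers only name cells and no result comes from a test. Depth limits low values: a gene listed at 0 in a cell may have been missed, and the number of HL1cm (5) limits what 0 of 5 can show.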
